A study of Mus musculus with 4 samples.

Results

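Partial copies of the endogenous retrovirus MERVL are described here across 4 RNA-seq libraries of mouse E14 embryonic stem cells. They are the copies whose name ends in the class I, the internal part with no long terminal repeat (LTR), or in the class L_I, the internal part with an LTR on one side. Membership was read from the names alone, which gave 402 class I copies (named MERVL-int) and 84 class L_I copies (named MT2_Mm). These 486 copies are a part of 2277 MERVL copies listed beside 43496 Ensembl genes. The other classes are L_I_L, 690 copies with an LTR on both sides, and L, 1101 LTRs without an internal part.

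MERVL is an LTR retrotransposon of the mouse genome. Its internal part encodes Gag and Pol proteins and its LTR, MT2_Mm, holds the promoter. Transcription peaks in the embryo at the 2-cell stage and recurs in the few cultured stem cells that resemble that stage, while chromatin repressors silence the element in most other cells. A copy without an LTR has no MERVL promoter of its own. Reads from near-identical copies can be hard to tell apart, so the value of any single copy is uncertain.

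Both groups were E14 cells (strain label 12910la) grown on gelatin in serum with LIF. Cells had taken up 1000 ng of a pSuper puro plasmid and were kept in puromycin at 1 µg/ml for 4 days from 24 h after transfection. The random shRNA group (genotype label wild type) carried a random hairpin and the MERVL shRNA group (genotype label MERVL knocked down) a hairpin against the element, with 2 libraries each, called controls 1 and 2 and knockdowns 1 and 2 by the replicate numbers of the labels. Values mix the cells present, so fewer expressing cells and less RNA per cell cannot be told apart. Separate cultures are not stated for the libraries of a group, so every p-value here rests on a spread that may be technical. The libraries held 11628887 to 16067854 estimated counts, and levels are given as CPM, each estimated count relative to its library total, not divided by copy length. A copy at 0 could have up to 3 counts, or 0.187 to 0.258 CPM depending on the library. Embryonic stem cell markers were present in every library, summing to 7309 to 9000 CPM over 8 genes. The targeted element, judged by class L_I_L, read 4182 and 1282 CPM in the controls and 999.5 and 457.9 CPM in the knockdowns, so its groups do not overlap, but control 1 was 3.26-fold above control 2 (log2 fold change -1.88 ± 0.57, edgeR adjusted p = 0.284).

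Partial copies as classes had less RNA in both knockdowns than in control 1, while control 2 lay next to knockdown 1. Class I summed to 55.9 CPM (95% Wilson interval 52.3 to 59.8) and 27.6 CPM (24.7 to 30.8) in controls 1 and 2. It summed to 26.1 CPM (23.8 to 28.8) and 16.1 CPM (14.2 to 18.3) in knockdowns 1 and 2. The intervals cover counting error only, and those of control 2 and knockdown 1 overlap. Group means were 41.8 ± 20.04 CPM (control SD, n = 2) and 21.1 ± 7.07 CPM (knockdown SD, n = 2). The edgeR log2 fold change of the class I sum was -0.96 ± 0.37 (SE), which did not pass (adjusted p = 0.364).

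Class L_I had a wider range. Its sum was 76.9 CPM (72.6 to 81.3) and 23.2 CPM (20.6 to 26.2) in controls 1 and 2, against 22.9 CPM (20.7 to 25.4) and 10.7 CPM (9.15 to 12.5) in knockdowns 1 and 2. Means were 50.04 ± 38.0 CPM in the controls and 16.8 ± 8.62 CPM in the knockdowns (SD over 2 libraries). On the log2 scale the change was -1.55 ± 0.56 (edgeR adjusted p = 0.340), which did not pass either. Control 1 stood 3.31-fold above control 2 in class L_I and 2.03-fold above it in class I, so the gap inside the control pair was larger than the gap between group means. With TMM scaling the order of control 2 and knockdown 1 turned in class L_I (22.6 and 23.1 CPM).

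The fold changes varied with the libraries, and the call with the model. Leaving out a library leaves 1 in its group, and the spread then comes from the other group alone. Those edgeR fits of the sums are therefore given by log2 fold change only. Without control 2 it was -1.38 for class I and -2.16 for class L_I, and without knockdown 1 it was -1.33 and -2.17. Without control 1 the log2 fold changes were -0.31 for class I and -0.40 for class L_I. Without knockdown 2 they were -0.65 and -1.11. With no filter on low counts both passed, at -0.95 (adjusted p = 0.000326) and -1.55 (adjusted p = 1.94e-11). With the replicate number as a block both passed too, at -0.90 (adjusted p = 0.0396) and -1.41 (adjusted p = 0.00307).

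**Figure D1:**
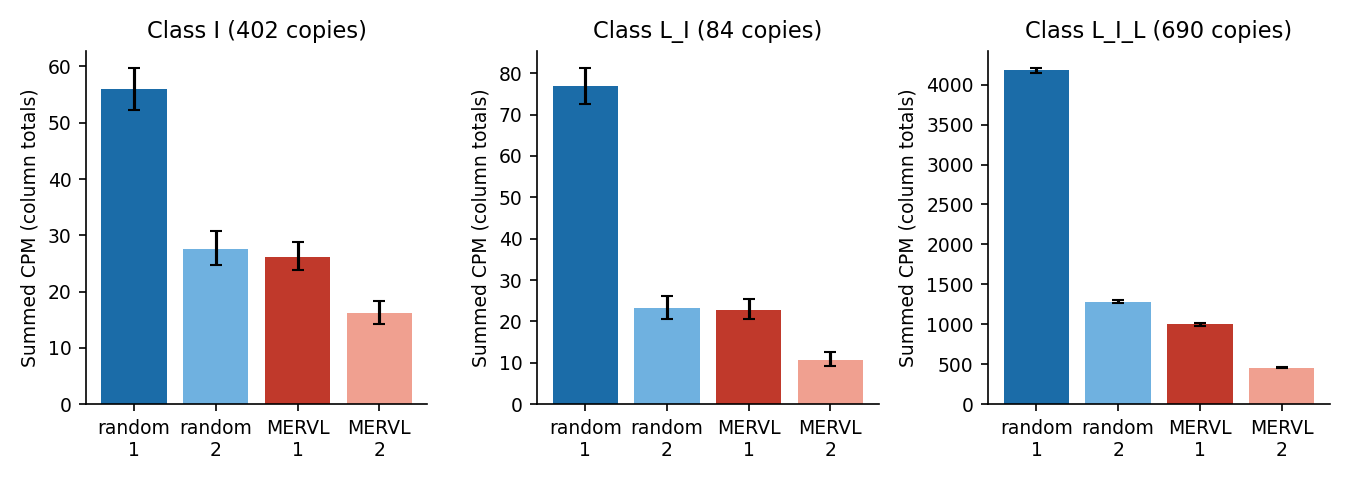
Summed CPM of class I, class L_I and the class L_I_L in each library, with the y axis from 0 and 95% Wilson intervals as error bars (counting error only). Controls 1 and 2 are drawn as random shRNA rep 1 and 2, and knockdowns 1 and 2 as MERVL shRNA rep 1 and 2. Control 1 is the highest library in each panel, and control 2 lies beside knockdown 1 in classes I (27.6 and 26.1 CPM) and L_I (23.2 and 22.9 CPM).

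Markers of the 2-cell-like state moved with these sums. Of 8 markers, 7 were matched by symbol and all 7 were lower in both knockdowns than in both controls, with none at 0 throughout and 0 passing in edgeR (all 7 lower at an unadjusted p under 0.05). Over all features 24.2% were lower without overlap and 8.92% lower at that p. Their sum was 878 and 231 CPM in controls 1 and 2, and 177 and 99.5 CPM in knockdowns 1 and 2. In CPM the 4 libraries ranked the same way in the markers and in both partial classes. Fibroblast markers also summed lower, at 30.4 and 34.7 CPM against 12.1 and 9.75 CPM over 7 genes. Most of that was Thy1, but 4 of the 7 were lower in both knockdowns than in both controls, and Col3a1, Lum and Dcn were at 0 in each library. Of the 3 fibroblast markers tested 0 passed in edgeR (smallest adjusted p = 0.211). Sums of trophectoderm markers (32.2 and 54.1, then 35.0 and 36.7 CPM) and primitive endoderm markers (12.3 and 10.3, then 11.8 and 9.95 CPM) overlapped between groups. Lower without overlap were 3 of the 5 trophectoderm markers (Eomes, and Cdx2 and Elf5 at 0.194 CPM or less) and 0 of the 4 primitive endoderm markers. The part of any of these cell types in the MERVL values was not tested.

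Most of the RNA came from few copies, and many copies had none. In class I 225 of 402 copies (56.0%) were at 0 in all 4 libraries, as were 22 of 84 (26.2%) in class L_I and 6 of 690 in class L_I_L. By mean CPM over the 4 libraries, 10 copies held 50% or more of the class I signal and 5 copies that of class L_I, where class L_I_L took 152. Class I was detected (an estimated count above 0) at 143 and 105 copies in the controls and at 125 and 99 in the knockdowns. Class L_I was detected at 62 and 47 copies, and at 51 and 44. Fewer copies were detected in control 2, the shallowest library, than in knockdown 1.

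Some counts were not whole, as where reads are shared between copies. Values that were not whole made up 69.8% to 82.6% of the class I signal in a library, 91.7% to 94.2% of that of class L_I and 98.1% to 99.2% of that of class L_I_L.

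Counted copy by copy, the groups overlapped in most class I copies and in 30 class L_I copies. Of 62 class L_I copies with any count, 31 (50%) were lower in both knockdowns than in both controls and 1 was higher in both. Of 177 class I copies with any count, 51 (28.8%) were lower in both, 3 were higher in both and 123 overlapped. Over all 28030 features with any count the shares were 24.2% lower and 13.8% higher. The class I share of lower copies lay near that background, but only 18 of the 177 had a mean of at least 5 counts. That share rests mostly on copies with few counts and is not read as a result on class I. In class L_I_L the share of lower copies was 556 of 684 (81.3%). A mean of at least 5 counts was reached by 653 of those 684 copies, and by 20 of the 62 in class L_I. The class L_I share thus also rests mostly on copies with few counts and is not read as a result on that class. The 4 copies higher in both knockdowns had few counts: MERVL-int copies 414, 330 and 442 and MT2_Mm copy 579, named after their values were seen, had mean counts of 2.75 at most.

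No partial copy passed the test of single features. After the filter on low counts, 7 class I and 9 class L_I copies were among 16353 features fitted, of which 0.00612% were called (edgeR, adjusted p under 0.05), a single feature that is no MERVL copy. At an unadjusted p under 0.05, 2 of the 7 and 4 of the 9 were lower and 0 were higher, where 8.92% of all features were lower. Copies that pass such a filter can do so through the group in which they are high, so those shares say nothing of the class. DESeq2 called 0 members, and 0.58% of all features lower. It gave no adjusted p to several of the named copies, among them MT2_Mm copies 956 and 1329, so these could not be called. The 0.58% is a share of all 27235 features fitted by DESeq2, with or without an adjusted p. At an unadjusted p under 0.05 it had 1 of 161 class I and 6 of 59 class L_I copies lower, against 4.04% of all features. With no filter, edgeR called 1 of 161 class I and 8 of 59 class L_I copies lower, against 3.76% of all features. Calls with a library left out are given in the last section only, as a group then has no spread of its own. With the replicate block it called 1 of the 7 and 5 of the 9 lower, against 3.84%.

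Among the class I copies with the most counts, several had groups that overlap. MERVL-int copy 490 had the highest mean of the class over the 4 libraries, though not in the controls alone, where copy 257 was higher. It read 5.26 and 5.27 CPM in controls 1 and 2 and 6.48 and 4.33 CPM in knockdowns 1 and 2. The control libraries were nearly equal and lay between the knockdowns, with a log2 fold change of 0.10 ± 0.31 (edgeR adjusted p = 0.923). Copy 503 read 1.18 and 1.13 CPM in the controls and 0.933 and 1.51 CPM in the knockdowns (0.15 ± 0.46, adjusted p = 0.920). Copy 398 read 1.70 and 0.902 CPM, then 1.23 and 1.14 CPM (-0.04 ± 0.48, adjusted p = 0.981). In all 3 the groups overlap.

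MERVL-int copies 387 and 528 were far lower in control 1 than in control 2. Copy 387 had 0.258 and 1.81 CPM in controls 1 and 2 and 0.934 and 0.618 CPM in the knockdowns. Copy 528 had 0.129 and 0.946 CPM, then 0.871 and 0.618 CPM. Control 1 was the lowest library in both, and every count of these copies was whole, from 2 to 21. Neither passed (-0.28 ± 0.84, adjusted p = 0.919 for copy 387, and 0.62 ± 0.82, adjusted p = 0.802 for copy 528).

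The other named class I copies had control 1 as the highest library. MERVL-int copy 257 read 10.0 and 2.56 CPM in the controls and 2.08 and 0.772 CPM in the knockdowns (-2.11 ± 0.75, adjusted p = 0.337). Its groups do not overlap, but control 2 was much nearer to knockdown 1 than to its own partner. Copy 198 was lower with less of a control gap: 1.04 and 0.649 CPM, then 0.266 and 0.214 CPM (-1.84 ± 0.57, adjusted p = 0.329). Copies 206, 381 and 355 did not pass the filter. Copy 206 had 2.06 and 0.258 CPM, then 0.560 and 0.206 CPM, so that its groups overlap. Copies 381 and 355 had 1.86 and 1.64 CPM in control 1, 0.442 and 0.592 CPM in control 2, and at most 0.439 and 0.385 CPM in a knockdown.

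**Figure D2:**
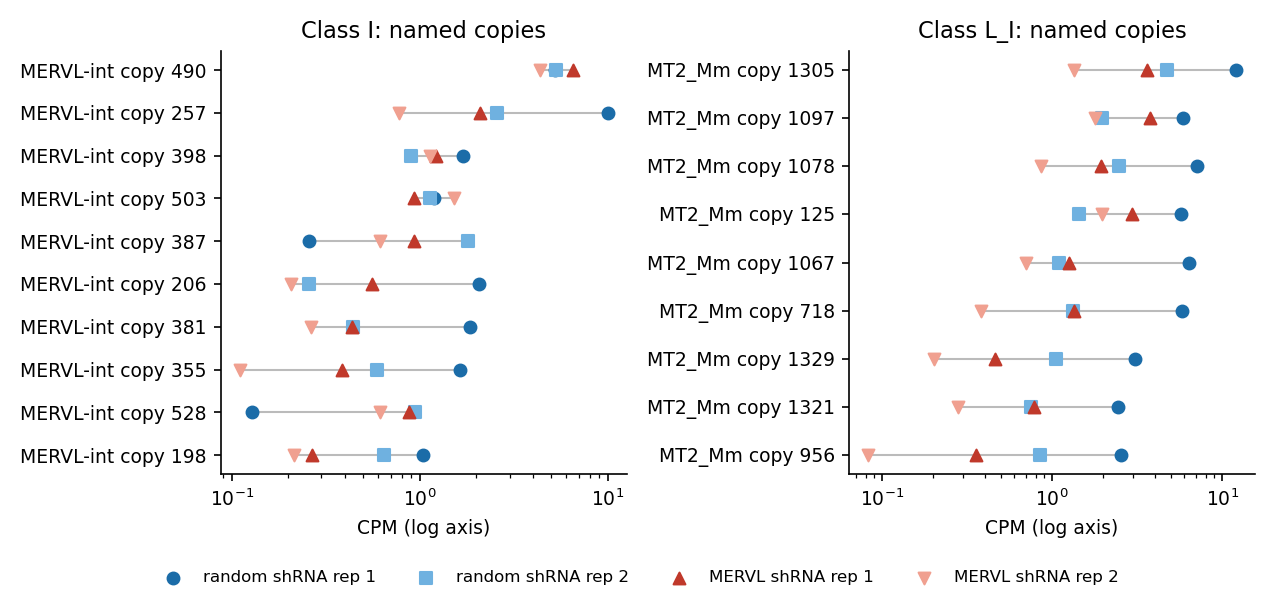
CPM of the named copies in each of the 4 libraries, on a log axis, with class I on the left and class L_I on the right and a line from the lowest to the highest library. Copy 490 spans 4.33 to 6.48 CPM, while copy 257 spans 0.772 to 10.0 CPM. Control 1 is the rightmost point for each class L_I copy.

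Control 1 was the highest library in each named class L_I copy, but the groups were free of overlap only in copies 1305, 1078, 956 and 1329. Copies 1097 and 125 had the fold changes nearest to none of the 9 fitted. MT2_Mm copy 1305 had the most counts, at 12.1 and 4.72 CPM in the controls and 3.59 and 1.34 CPM in the knockdowns (-1.71 ± 0.60, adjusted p = 0.337). Copy 1078 read 7.07 and 2.48 CPM, then 1.94 and 0.862 CPM (-1.72 ± 0.63, adjusted p = 0.338). In both the groups do not overlap. The largest negative fold changes of the 9 fitted were those of copy 956, with 2.55 and 0.847 CPM against 0.358 and 0.0824 CPM (-2.83 ± 0.84, adjusted p = 0.329), and copy 1329, with 3.06 and 1.05 CPM against 0.459 and 0.200 CPM (-2.59 ± 0.71, adjusted p = 0.329).

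MT2_Mm copies 1097 and 125 shared the high value in control 1, but in each of them knockdown 1 lay above control 2. Copy 1097 read 5.85 and 1.97 CPM in the controls and 3.74 and 1.80 CPM in the knockdowns (-0.47 ± 0.61, adjusted p = 0.797). Copy 125 read 5.71 and 1.44 CPM, then 2.95 and 1.97 CPM (-0.50 ± 0.64, adjusted p = 0.791). In copy 125 control 2 was the lowest of the 4 libraries. Copies 1067, 718 and 1321 had control 2 just below knockdown 1, at 1.10 against 1.26, 1.33 against 1.34, and 0.746 against 0.785 CPM, so their groups overlap too. Their log2 fold changes were -1.92, -1.94 and -1.52.

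Over copies with a mean of at least 5 counts, the folds of class I ranged from -2.81 to 0.47 and those of class L_I from -3.22 to -0.50 on the log2 scale. The median log2 ratio of MERVL shRNA to random shRNA means was -1.59 over 18 class I copies (quartiles -1.83 and -0.21) and -1.90 over 20 class L_I copies (quartiles -2.24 and -1.54). It was -1.92 over 653 class L_I_L copies (quartiles -2.09 and -1.74), and -0.08 over all 17871 features at that depth (quartiles -0.36 and 0.15). The mean was higher in the knockdowns in 4 of the 18 class I copies and in 0 of the 20 class L_I copies. A copy can reach that mean through control 1, which favours low ratios: 3 of the 18 and 4 of the 20 had 5 or more counts in control 1 alone, and 6 of each class had them in both knockdowns. The medians are therefore no measure of the class as a whole.

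**Figure D3:**
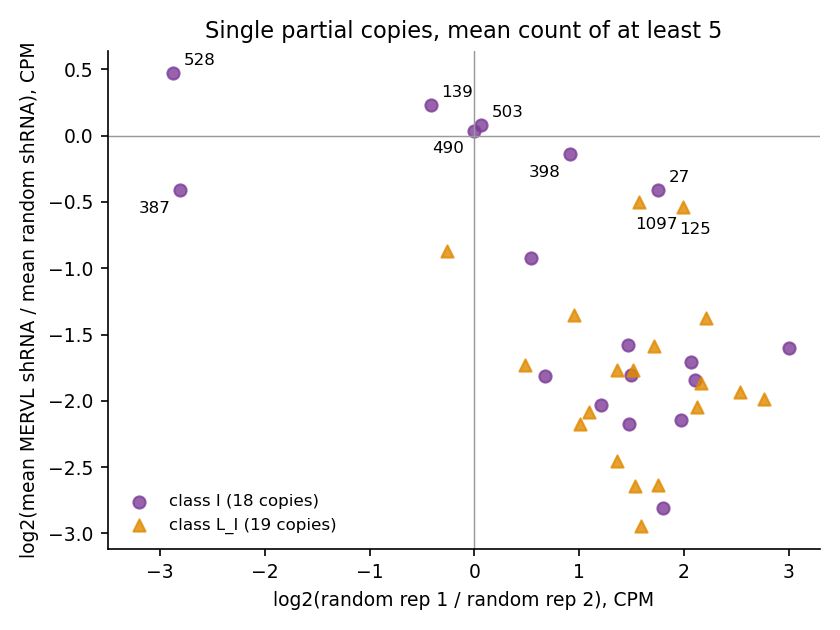
Each point is a partial copy with a mean of at least 5 counts: the x axis is the log2 ratio of CPM between controls 1 and 2, the y axis the log2 ratio of group means. Most copies lie at lower right, class I copies 490 and 503 lie near 0 on both axes, copies 387 and 528 lie at far left, and MT2_Mm copies 1097 and 125 lie above the other class L_I copies; numbers mark the copies with a y value above -0.6, and MT2_Mm copy 123, at 0 in control 2, is not plotted.

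Set against class L_I_L in the same library, both partial classes took a larger share in the knockdowns. Class I equalled 1.34% and 2.15% of the class L_I_L counts in controls 1 and 2, and 2.62% and 3.53% in knockdowns 1 and 2. The difference in mean log2 ratio was 0.84 (2-sided exact permutation p = 0.333, n = 2 per group), and it was 0.50 without control 1 and 1.18 without control 2. Class L_I equalled 1.84% and 1.81%, then 2.29% and 2.33%, a difference of 0.34 (2-sided exact permutation p = 0.333). The groups do not overlap in either ratio, and 0.333 is the smallest p that 2 against 2 libraries allow. The class L_I ratio was nearly the same inside each group, although the sums behind it differed 3.31-fold and 2.14-fold. These ratios carry no counting interval, and the class L_I sums of control 2 and knockdown 2 rest on 270 and 156 estimated counts. Whether the groups lie apart beyond counting error was not tested. The ratio of class L_I to class I was 137% and 84.1%, then 87.5% and 66.2%, and its groups overlap (log2 difference -0.50, 2-sided exact permutation p = 0.667). That difference was -0.14 without control 1, -0.85 without control 2 and -0.30 without knockdown 2. These are 3 ratios of sums that share terms, and none could pass at this number of libraries.

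**Figure D4:**
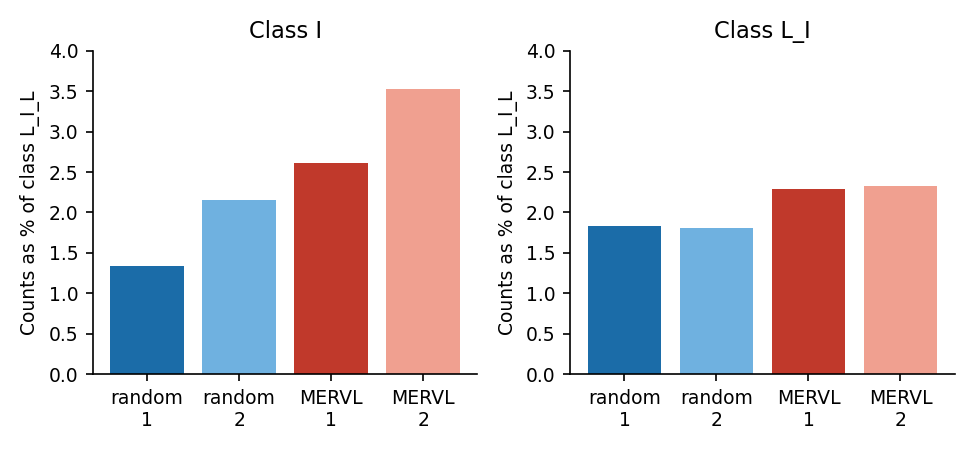
Estimated counts of class I (left) and class L_I (right) as a percentage of the class L_I_L counts in the same library. Class I goes from 1.34% to 3.53% with a spread inside each group, while class L_I takes 1.84% and 1.81% in the controls and 2.29% and 2.33% in the knockdowns. Counting error is not drawn.

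The shift in share is described here by copy. Copies with a mean of at least 5 counts and a log2 ratio of group means above -0.6, a limit set after the values were seen, were 7 in class I (copies 490, 398, 503, 387, 528, 139 and 27) and 2 in class L_I (copies 1097 and 125). MT2_Mm copies 1097 and 125 together held 15.0% and 14.7% of the class L_I counts in the controls and 29.2% and 35.2% in the knockdowns. The other 82 class L_I copies equalled 1.56% and 1.54% of class L_I_L in the controls and 1.62% and 1.51% in the knockdowns, and those values overlap. Leaving out copies picked for their own high ratio lowers the remainder in the knockdowns, so nothing is read from that overlap.

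In class I, copy 490 alone held 9.40% and 19.1% of the class in the controls and 24.8% and 26.8% in the knockdowns. With the other 6 it summed to 9.64 and 10.9 CPM in the controls, against 11.7 and 8.80 CPM in the knockdowns. The remaining 395 class I copies summed to 46.3 and 16.7 CPM, then 14.4 and 7.34 CPM, which equals 1.11% and 1.31%, then 1.44% and 1.60%, of class L_I_L. Choosing copies by their ratio fixes the direction in which the remainder moves, so these sums are a description without a test.

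The second deposited table, the authors' normalized scores, gives another picture of the control pair. It holds the features with more than 5 estimated counts in at least 2 libraries, which leaves 16 class I and 17 class L_I copies. In CPM, controls 1 and 2 differed over 2-fold in 25 of these 33 copies, with ratios from 0.136 to 8.004. In the scores the ratio lay between 0.8 and 1.5, and in 19 of 33 the scores differed by 1 or less. MERVL-int copy 387, with 4 and 21 counts, has scores of 11 and 11, and MT2_Mm copy 1067, with 98.7 and 12.8 counts, has 34 and 38.

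In those scores both knockdowns were below both controls in 14 of 17 class L_I copies and 8 of 16 class I copies. Over all 17823 scored features the share was 40.1%, and a copy could enter the table through the 2 controls alone, so nothing is read from these counts. Summed scores were 438 and 488 against 292 and 132 in class L_I, and 274 and 290 against 245 and 162 in class I. Tested with limma on log2(score + 1), MERVL-int copy 198 fell (-1.54 ± 0.20, adjusted p = 0.0263), as did MT2_Mm copies 1329 (-2.26 ± 0.35, adjusted p = 0.0299) and 1700 (-1.60 ± 0.22, adjusted p = 0.0277). That is 1 class I and 2 class L_I copies, where 14.5% of all features were called lower. Copy 490 scored 75 and 74 against 94 and 64. The score tests rest on a smaller spread between the controls than the estimated counts have.

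**Figure D5:**
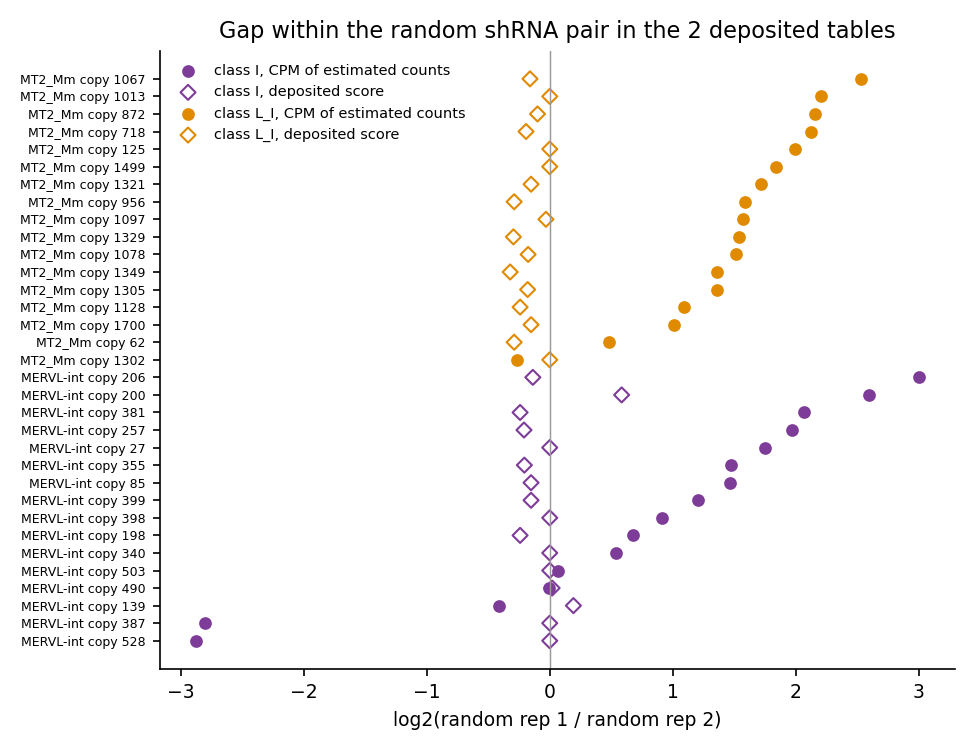
Log2 ratio of control 1 to control 2 for the 33 partial copies in both deposited tables, as CPM of estimated counts (filled circles) and as the authors' normalized score (open diamonds). Circles spread from 0.136-fold to 8.004-fold, while diamonds lie between 0.8-fold and 1.5-fold.

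Genes reported to switch MERVL on or off were looked up beside the copies. Of 49 listed genes 47 were matched and tested, and 0 passed over all features in edgeR, with 7 lower and 2 higher at an unadjusted p under 0.05, against 8.92% and 4.69% of all features. The 9 activators had a median log2 fold change of -1.86, which is the value of Zscan4c, and 3 of the 9 are Zscan4 genes, of which Zscan4c and Zscan4d are also among the 2-cell-like markers. The other activators Dppa2, Trp53, Dppa4 and Smarca5 were at -0.76, -0.23, 0.03 and 0.07. The 38 repressors had a median of 0.03, against -0.01 over all features tested. By list, the 7 lower at that unadjusted p were 5 activators and 2 repressors, and the 2 higher were both repressors. Duxf3, the Dux gene, whose homeobox protein binds the MERVL LTR, read 6.94 and 2.99 CPM, then 0.827 and 1.21 CPM (-2.24 ± 0.54, adjusted p = 0.329). Gata2, a GATA transcription factor, was at -1.99 and Zscan4f, Zscan4c and Zscan4d, zinc finger genes of the 2-cell embryo, were at -2.02, -1.86 and -2.0. Hdac2, a histone deacetylase, was at 0.44. The corepressor Trim28 had 2666 and 1616 CPM, then 1590 and 1689 CPM (-0.33 ± 0.26, adjusted p = 0.648), and the histone demethylase Kdm1a was at 0.10 ± 0.14 (adjusted p = 0.815). Without control 1 the sign of Trim28 turned (0.09), and 5 regulators were called lower and 5 higher, against 7.28% and 6.77% of all features. Without control 2 there were 14 lower and 6 higher, against 17.4% and 14.9%. With the scores there were 8 each way, against 14.5% and 13.1%.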

How the data were processed

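RNA-seq of 2 random shRNA and 2 MERVL shRNA libraries was analysed, with groups and replicate numbers from the sample titles. The submitters' processing notes list Trim Galore, HISAT2 and build mm10. Versions, the counting program and strand use are not stated there. The authors deposited estimated counts per gene and copy, many of them not whole. They also deposited a normalized score by an unstated method, for exactly the 17823 features with over 5 estimated counts in at least 2 libraries. Positions, lengths and sequences of the copies were not used here.

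Estimated counts were rounded and fitted over all features with the edgeR 4.0.16 quasi-likelihood F test (R 4.3.3; TMM, filterByExpr, 2-sided, Benjamini-Hochberg adjustment, threshold 0.05). Class sums were fitted beside the genes, and SEs derive from F. CPM in the text uses library totals without TMM. Scores with a mean of at least 1 were tested with limma 3.58.1 on log2(score + 1). A trended prior was used in limma. Fits were tried on simulated data whose spread was set by a formula and not taken from the control pair, so they do not show how the fits perform here. Alternatives were DESeq2 1.42.0, RLE or library-total scaling, no filter, a replicate block, leaving out each library or the most abundant copy, and the scores. The chi-square of counts per degree of freedom was 32.1 in the random shRNA pair and 5.94 in the MERVL shRNA pair, so neither pair was treated as a repeat deposit.

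Members, gene lists and tests were chosen with earlier results of these data known. Named copies were, per class, the 8 with the highest mean CPM, the 3 with the smallest p and any called; naming the longest copy and host genes was not possible without positions. Named genes were listed regulators with an unadjusted p under 0.05, up to 6 by p, plus Zscan4c, Trim28 and Kdm1a. The entry Dux was to be named too but was not matched by symbol, while the separate entry Duxf3 was. Copies 139, 27, 414, 330, 442, 579, 123 and 1700 were named after their values were seen.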

Additional observations from a re-analysis of the deposited data

How the results depend on the processing

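Direction of both class sums was negative under each alternative run, and RLE or column-total scaling, DESeq2, rounding after summing, leaving out the most abundant copy and the deposited scores left both uncalled. With no filter the sums passed (class I -0.95, class L_I -1.55). The replicate block gave -0.90 for class I (adjusted p = 0.0396) and -1.41 for class L_I (adjusted p = 0.00307), so both passed; with it 1 of 7 class I copies, 5 of 9 class L_I copies and 4 of 47 regulators were called lower, against 3.84% of all features. Same-numbered libraries are not said to share anything, and with only 2 pairs their deviations had a correlation of 0.24 over 15227 features, so the block is not read as a pairing. With a library left out, the class I sum ran from -1.38 to -0.31 and class L_I from -2.17 to -0.40. Single copies called lower then ran from 0 to 11 in class I and from 0 to 17 in class L_I, and regulators from 0 to 14 lower and 0 to 6 higher, the highest without random shRNA replicate 2, where 17.4% of all features were lower and 14.9% higher. With no filter the calls were 1 of 161 class I copies, 8 of 59 class L_I copies and 7 regulators lower (3.76% of all features). With the scores they were 1 of 16, 2 of 17 and 8 regulators lower, and 8 regulators higher (14.5% and 13.1%). With DESeq2 1 regulator was called lower (0.58%). The class ratios kept their sign in each alternative run. Signs turned in copies near 0. With a library left out, copy 490 ran from -0.17 to 0.36, copy 398 from -0.41 to 0.56, copy 503 from -0.23 to 0.50, copy 387 from -1.13 to 1.63 and copy 528 from -0.26 to 2.52. MT2_Mm copy 1097 ran from -1.04 to 0.56, MT2_Mm copy 125 from -1.14 to 0.82 and Trim28 from -0.64 to 0.094. Copy 398 was also at 0.0015 with the replicate block and at 0.076 with the scores. The cause of these changes was not tested. Alternatives on host genes and the LTR side were not run. Where a group is left with 1 library, its spread is assumed to be that of the other group. Summing before rounding and the scores of class sums were added after the data were seen.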
